A study of Mus musculus with 6 samples.

Results

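The genes described are 10 that build the muscle side of the neuromuscular junction, out of 49315 genes counted. They were taken by symbol: the acetylcholine receptor subunits Chrna1, Chrnb1, Chrnd, Chrne and Chrng, the receptor-clustering genes Musk, Lrp4, Dok7 and Rapsn, and Colq. All 10 symbols were found, each on a single row. Messenger RNA was counted in gastrocnemius of male C57BL6J mice whose muscle received an AAV9 vector at 5 months of age and was taken 5 months afterwards. The vector AAV9-HSA-CAAHR carried a constitutively active aryl hydrocarbon receptor (AHR), a mouse AHR without its ligand-binding domain, and AAV9-HSA-GFP carried a green fluorescent protein. Both transgenes were under the human skeletal actin promoter, which acts in muscle fibres, so fibres and not nerve or Schwann cells were the intended site of expression. Each group had 3 libraries, CAAHR replicates 31, 34 and 36 and GFP replicates 42, 43 and 46. The labels do not say that the libraries came from separate animals. The p-values set the difference between groups against the spread between these libraries. Uninjected or denervated muscle was not analysed here.

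At the junction, the motor nerve releases acetylcholine onto receptors packed into the fibre membrane. Agrin from the nerve binds LRP4, which activates the kinase MuSK together with its adaptor Dok-7, and rapsyn then anchors the receptors. A fetal receptor contains the gamma subunit (Chrng), which the epsilon subunit (Chrne) replaces in adult innervated muscle. When the nerve is lost, fibres are known to express alpha, delta and gamma subunits, MuSK and the myogenic factor myogenin along their whole length again. The comparison therefore asked whether junction transcripts of CAAHR muscle differed from those of GFP muscle, in particular the ones known to rise with denervation.

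Of the receptor and organiser transcripts, 3 were higher in CAAHR muscle. Chrnb1, Chrnd and Lrp4 passed the test, with changes of 1.70-fold, 2.075-fold and 1.66-fold. Of these 3, Chrnd is the one named above as rising with denervation, though the genes named there are not a complete list. Of the other members named there, Chrna1 and Musk had intervals that spanned no change, and Chrng was barely detected in either group. Of the 10 members, 9 had enough counts to be tested, and 3 of these 9 had an adjusted p under 0.05, all higher in CAAHR. Over all 15847 tested genes the share called was 7.6%, with 3.04% higher and 4.57% lower. The median log2 fold change was 0.32 over the 9 members and 0.01 over all tested genes. Values per library are CPM (counts relative to the library total) with TMM scaling, which sets libraries to a common level over most genes, and fold changes, adjusted p-values and 95% confidence intervals are from the edgeR quasi-likelihood test.

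The members' promoters are shown because the regulatory letters known from receptor genes can be read in them. RefSeq start sites on GRCm38.p6 were at hand for 6 of the 10 members (Chrna1, Chrnb1, Chrne, Chrng, Musk and Dok7). The 250 bases before the start of the 4 receptor subunits among them follow, 5′ to 3′ on the gene's strand, with matches to the E-box CANNTG, bound by myogenic factors such as myogenin, and to the N-box CCGGAA, bound by GABP, in capitals. None of these 4 stretches holds the letters GCGTG, the core that AHR and ARNT bind, on either strand. RefSeq and GENCODE place some starts differently. The Chrng stretch lies inside the gene as annotated by GENCODE, which begins at 87204657, and the Chrne and Chrnb1 stretches overlap the first bases of theirs.
Chrnb1 chr11:69795938-69796187 (-): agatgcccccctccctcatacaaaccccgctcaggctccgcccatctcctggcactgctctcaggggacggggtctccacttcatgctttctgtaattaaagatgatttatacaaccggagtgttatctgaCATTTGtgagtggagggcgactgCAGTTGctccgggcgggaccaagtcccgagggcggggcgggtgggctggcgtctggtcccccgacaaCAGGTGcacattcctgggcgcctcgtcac
Chrna1 chr2:73580339-73580588 (-): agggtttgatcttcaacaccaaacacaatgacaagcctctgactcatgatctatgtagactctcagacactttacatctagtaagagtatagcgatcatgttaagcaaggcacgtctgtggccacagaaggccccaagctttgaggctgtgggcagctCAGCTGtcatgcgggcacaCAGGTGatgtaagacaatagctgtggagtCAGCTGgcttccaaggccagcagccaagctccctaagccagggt
Chrne chr11:70619195-70619444 (-): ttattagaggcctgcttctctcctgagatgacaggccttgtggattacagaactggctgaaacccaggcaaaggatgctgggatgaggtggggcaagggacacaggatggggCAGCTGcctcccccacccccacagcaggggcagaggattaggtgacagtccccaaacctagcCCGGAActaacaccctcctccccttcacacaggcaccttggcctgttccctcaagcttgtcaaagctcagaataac
Chrng chr1:87205561-87205810 (+): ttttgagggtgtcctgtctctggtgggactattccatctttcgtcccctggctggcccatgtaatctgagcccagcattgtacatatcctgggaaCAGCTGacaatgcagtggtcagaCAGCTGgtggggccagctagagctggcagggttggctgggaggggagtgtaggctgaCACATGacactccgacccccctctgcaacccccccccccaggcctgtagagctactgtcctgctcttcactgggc
Chrna1, Chrnb1, Chrng and Musk each held 3 E-boxes in this window. Chrne held 1, and it was the member with an N-box, 76 bases before the start. GCGTG was found once before each of the 2 RefSeq start sites of Dok7, 108 and 179 bases upstream. Both strands were searched in the same 250 bases of all 32851 promoters, of which 66.2% held CANNTG, 28.2% held GCGTG and 3952 promoters held CCGGAA, so these letters are common and a match is no evidence of binding. Matches of the motifs did not overlap one another in the printed stretches.

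Chrnb1 (ENSMUSG00000041189, chromosome 11, 69784036 to 69795943, GRCm38) encodes the beta subunit. It was at 37.0, 29.7 and 25.8 CPM in GFP replicates 42, 43 and 46, and at 44.4, 59.8 and 53.0 CPM in CAAHR replicates 31, 34 and 36. Each CAAHR library lay above each GFP library. The means were 52.4 ± 7.70 CPM (SD, n = 3) against 30.8 ± 5.72 CPM, a log2 fold change of 0.77 ± 0.15 (SE) (edgeR, adjusted p 0.0193). This call was lost without CAAHR replicate 36 (adjusted p 0.0690), GFP replicate 43 (0.0679) or GFP replicate 46 (0.0665) in the same edgeR test, with log2 fold changes of 0.75, 0.74 and 0.65.

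Chrnd (ENSMUSG00000026251, chromosome 1, 87190607 to 87200070) encodes the delta subunit, present in fetal and adult receptors. Counts were modest, from 61 to 255 per library. GFP replicates 42, 43 and 46 had 1.97, 1.47 and 1.68 CPM, and CAAHR replicates 31, 34 and 36 had 3.93, 2.52 and 4.18 CPM. The groups did not overlap, and replicate 34 was the CAAHR library nearest to GFP. On average Chrnd was at 3.54 ± 0.897 CPM (SD) in CAAHR and at 1.70 ± 0.252 CPM in GFP, a log2 fold change of 1.05 ± 0.23 (edgeR, adjusted p 0.0260). Leaving out CAAHR replicate 31 or 36, or GFP replicate 43 or 46, raised its adjusted p to 0.0909, 0.108, 0.0866 and 0.0920 in edgeR. With the mean level of 9 slow-fibre markers as a covariate, the log2 fold change was 0.49 and the call was lost (adjusted p 0.534 in edgeR).

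Lrp4 (ENSMUSG00000027253, chromosome 2, 91457511 to 91513779), the receptor for agrin, was the called member of the organiser group. Its levels were 11.3, 7.83 and 12.1 CPM in GFP replicates 42, 43 and 46. In CAAHR replicates 31, 34 and 36 they were 15.3, 17.7 and 18.8 CPM, all above the GFP range. Means of 17.3 ± 1.77 and 10.4 ± 2.25 CPM gave a log2 fold change of 0.73 ± 0.16 (edgeR, adjusted p 0.0275). The call did not hold without CAAHR replicate 31 or 36, or without GFP replicate 42 or 43, where adjusted p in edgeR was 0.0559, 0.113, 0.0547 and 0.0520. It was also lost with the slow-fibre covariate, at a log2 fold change of 0.75 (adjusted p 0.210 in edgeR).

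**Figure D1:**
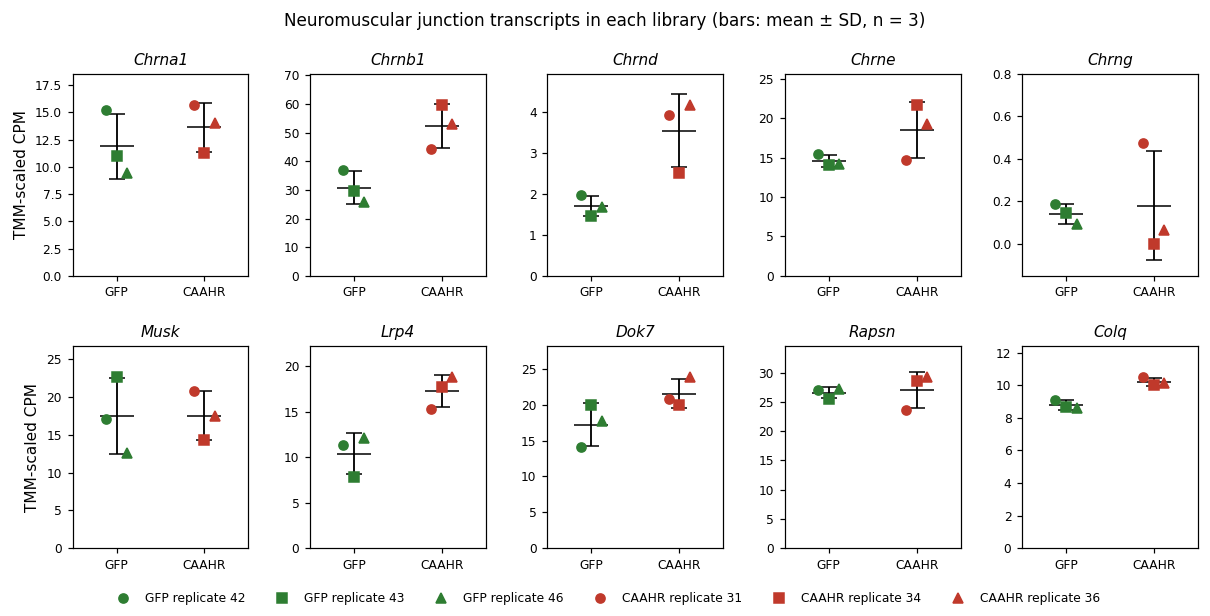
TMM-scaled CPM (vertical axes) of the 10 junction members in GFP and CAAHR libraries, with a symbol for each library and bars for mean ± SD (n = 3); the axes start at 0, or just below it for Chrng. Chrnb1, Chrnd, Lrp4, Dok7 and Colq show no overlap between groups, whereas Chrna1, Chrne, Chrng, Musk and Rapsn do overlap.

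Chrna1 (ENSMUSG00000027107, chromosome 2, 73563215 to 73580338) encodes the alpha subunit, which carries the main part of the acetylcholine binding site. It was at 15.2, 11.002 and 9.45 CPM in GFP replicates 42, 43 and 46 and at 15.7, 11.2 and 13.97 CPM in CAAHR replicates 31, 34 and 36. The groups overlapped, with GFP replicate 42 above CAAHR replicates 34 and 36. Its log2 fold change was 0.20 ± 0.19 (edgeR, adjusted p 0.593), and the 95% interval ran from a 0.849-fold to a 1.55-fold level. A rise larger than this upper bound lies outside the interval.

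Musk (ENSMUSG00000057280, chromosome 4, 58285960 to 58374303), the kinase at the centre of junction assembly, varied more within groups than between them. GFP replicates 42, 43 and 46 were at 17.1, 22.6 and 12.6 CPM. CAAHR replicates 31, 34 and 36 were at 20.9, 14.3 and 17.5 CPM, inside the GFP range. Means were 17.6 ± 3.25 and 17.5 ± 5.00 CPM, a log2 fold change of 0.01 ± 0.22 with an interval from 0.709-fold to 1.43-fold (edgeR, adjusted p 0.988). The sign of this value changed with upper quartile scaling (-0.06).

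Chrne (ENSMUSG00000014609, chromosome 11, 70614883 to 70619216), the adult subunit made by nuclei under the nerve ending, was at 15.4, 14.1 and 14.2 CPM in GFP replicates 42, 43 and 46. In CAAHR replicates 31, 34 and 36 it was at 14.6, 21.7 and 19.2 CPM, so replicate 31 lay within the GFP range. The log2 fold change of 0.35 ± 0.14 did not pass (edgeR, adjusted p 0.172). It passed without CAAHR replicate 31 (0.49, adjusted p 0.0494 in edgeR) and without a filter on low counts (0.36, adjusted p 0.0482 in edgeR).

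Chrng (ENSMUSG00000026253, chromosome 1, 87204657 to 87212694), the fetal subunit, was the member with too few counts for the test. It had 9, 6 and 5 counts in GFP replicates 42, 43 and 46, and 24, 0 and 4 counts in CAAHR replicates 31, 34 and 36. CAAHR replicate 31 was above and the other CAAHR libraries below the GFP range of 0.0944 to 0.186 CPM. The count of 0 in replicate 34 allows a level of up to 0.0525 CPM (3 counts). As a share of gamma and epsilon counts, gamma made up 3.14% in CAAHR replicate 31 (95% exact binomial interval 2.02% to 4.63%), 0% in replicate 34 (upper bound 0.297%) and 0.340% in replicate 36 (0.0926% to 0.867%). In GFP replicates 42, 43 and 46 the share was 1.19% (0.547% to 2.25%), 1.02% (0.373% to 2.20%) and 0.658% (0.214% to 1.53%). These intervals cover counting error only. Epsilon thus outnumbered gamma in each of the 6 libraries, and the direction of the CAAHR difference depended on replicate 31. In a fit without a filter on low counts, Chrng had a log2 fold change of 0.32 with an adjusted p of 0.838 (edgeR).

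Among the other receptor-clustering genes, Rapsn (ENSMUSG00000002104, chromosome 2, 91035620 to 91045729), which encodes the anchor rapsyn, was the steadiest. It was at 27.0, 25.5 and 27.3 CPM in GFP replicates 42, 43 and 46 and at 23.6, 28.5 and 29.2 CPM in CAAHR replicates 31, 34 and 36. The log2 fold change was 0.03 ± 0.10, with a 95% interval from 0.867-fold to 1.201-fold (edgeR, adjusted p 0.904), and its sign also changed with upper quartile scaling (-0.04). Dok7 (ENSMUSG00000044716, chromosome 5, 35056766 to 35087839), the MuSK adaptor, was at 14.04, 19.94 and 17.7 CPM against 20.8, 19.96 and 23.8 CPM in the same order of libraries. CAAHR replicate 34 exceeded GFP replicate 43 by a narrow margin, and the log2 fold change of 0.32 ± 0.14 did not pass (edgeR, adjusted p 0.189).

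Colq (ENSMUSG00000057606, chromosome 14, 31523082 to 31591343) encodes the collagen tail that holds acetylcholinesterase in the synaptic cleft. It was at 9.11, 8.67 and 8.59 CPM in GFP replicates 42, 43 and 46 and at 10.49, 9.99 and 10.1 CPM in CAAHR replicates 31, 34 and 36. The groups did not overlap and their SDs were small (0.283 and 0.264 CPM), yet the log2 fold change of 0.21 ± 0.10 did not pass (edgeR, adjusted p 0.247). Gm49387 on the same strand shares 199 bases of its exons, where uniquely assigned reads cannot be placed. Counting all 9 tested members, 5 had each CAAHR library above each GFP library, where 15% of all tested genes did, and 5 had an unadjusted p under 0.05, where 23.9% of all tested genes did.

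**Figure D2:**
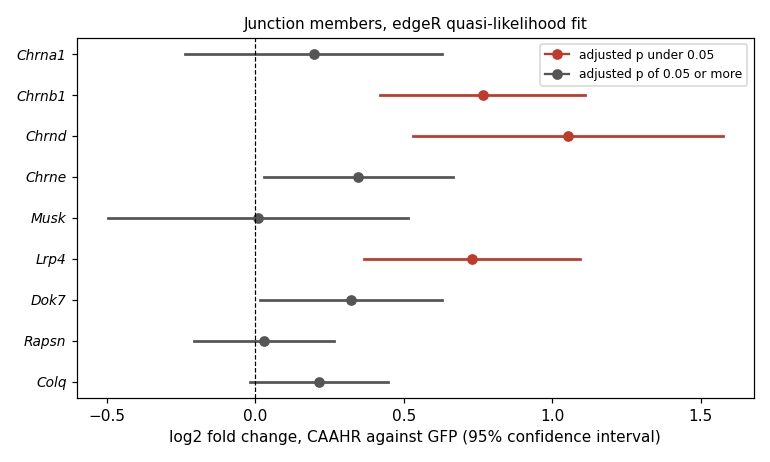
Log2 fold change of CAAHR against GFP (horizontal axis) for the 9 tested junction members, as points with 95% confidence intervals from edgeR; red marks an adjusted p under 0.05. The intervals of Chrnb1, Chrnd and Lrp4 lie furthest above 0, those of Chrna1, Musk, Rapsn and Colq include 0.

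Levels were set side by side between genes after division by exon length. This length covers all annotated exons of a gene, pooled over its isoforms, and need not match the transcript present in muscle. The order between genes and ratios between them therefore depend on the annotation as well. In GFP muscle, Rapsn (14.7 ± 0.536 CPM per kb of exon, SD, n = 3) and Chrnb1 (12.2 ± 2.26) were the most abundant, and their libraries overlapped. Chrne followed at 8.63 ± 0.441 CPM per kb, apart from both neighbours in the order. Musk (4.63 ± 1.32), Dok7 (4.03 ± 0.696), Chrna1 (2.71 ± 0.681) and Colq (2.31 ± 0.0743 CPM per kb) came next, and in this run each overlapped its neighbours, while Colq stood apart from Lrp4 below it. Lrp4 (0.989 ± 0.214), Chrnd (0.518 ± 0.0767) and Chrng (0.0340 ± 0.0111 CPM per kb) were lowest and stood apart from one another. In CAAHR muscle the first place went to Chrnb1 at 20.7 ± 3.04 CPM per kb, with each library above the Rapsn libraries (15.04 ± 1.71).

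The levels of the receptor subunits were also set against that of Chrna1 in each library. Per exon length, Chrnb1 was 4.22, 4.67 and 4.72 times Chrna1 in GFP replicates 42, 43 and 46 and 4.90, 9.22 and 6.57 times Chrna1 in CAAHR replicates 31, 34 and 36. The ratio of Chrnd to Chrna1 was 0.172, 0.178 and 0.237 against 0.334, 0.299 and 0.399. For both ratios the groups did not overlap, while for Chrne to Chrna1 they did (2.63 to 3.91 in GFP and 2.42 to 5.02 in CAAHR). These ratios were described only, with no test of the difference.

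**Figure D3:**
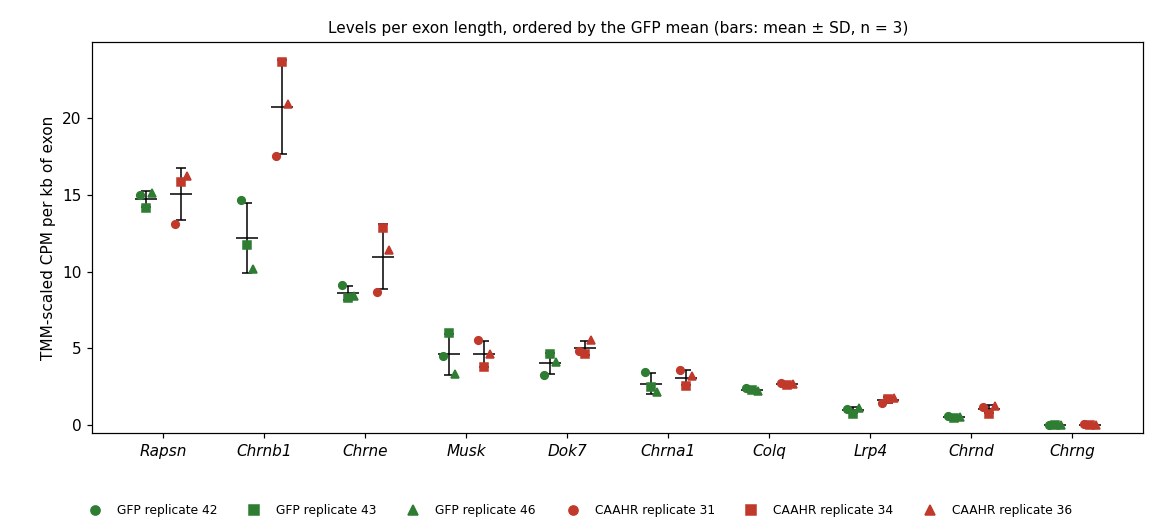
Level of each junction member per exon length (vertical axis, TMM-scaled CPM per kb) in the 6 libraries, ordered by the GFP mean, with mean ± SD (n = 3). Rapsn and Chrnb1 lead in GFP, Chrnb1 leads in CAAHR, and Chrng lies near 0 in both.

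The genes whose profile over the 6 libraries was most like that of Chrna1 were Pank3, 4931406P16Rik, Vash1, Zfp72 and Cdkn1a, out of 12231 compared. Likeness was the root-mean-square difference of log2 CPM after centring each gene on its own mean, and it was 0.0761 for Pank3 and 0.103 for Cdkn1a. None of these 5 had an adjusted p under 0.05 (edgeR).

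Other genes of the junction were taken from a list of 28, of which 27 were tested. Of these, 1 was called in edgeR, Pak1, and it was lower. Pak1, a kinase of the actin cytoskeleton that acts in agrin signalling, was at 36.9, 35.3 and 29.9 CPM in GFP replicates 42, 43 and 46 and at 11.6, 10.7 and 5.44 CPM in CAAHR replicates 31, 34 and 36. Its log2 fold change was -1.88 ± 0.27 (edgeR, adjusted p 0.00864). The groups lay far apart, and the call held whichever of the 6 libraries was left out. With the mean level of slow-fibre markers as a covariate, it was lost (-1.50, adjusted p 0.196 in edgeR). A further 7 genes had an unadjusted p under 0.05 without passing. In all, 8 of the 27 had an unadjusted p under 0.05 (edgeR), where 23.9% of all tested genes did. Scn4a, the sodium channel of the fibre membrane, had a log2 fold change of 0.36 (edgeR, adjusted p 0.0741), Gabpa, a subunit of the N-box factor GABP, 0.35 (0.0653), Lamb2, the synaptic laminin chain, 0.34 (0.0990), Crkl 0.34 (0.108) and Dag1 0.32 (0.0960). Col13a1, a collagen of the synaptic membrane, had -0.62 (0.201) and Sntb2 -0.31 (0.203). Scn4a, Gabpa and Dag1 were called by DESeq2 and by edgeR with scaling by library size alone. Without a filter on low counts edgeR called Scn4a, Gabpa, Lamb2 and Crkl, limma-voom called Lamb2, and so did edgeR without CAAHR replicate 34. Gabpa shares 397 antisense exon bases with Atp5j.

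The genes of agrin, acetylcholinesterase, the neuregulin receptors and utrophin among them did not pass. Which cells made these transcripts was not determined. Agrn was at 13.4 to 14.2 CPM in GFP and at 14.1 to 17.02 CPM in CAAHR, and Ache, the acetylcholinesterase gene, at 27.8 to 33.4 and 26.6 to 42.3 CPM. The neuregulin receptor genes Erbb2 (log2 fold change 0.10) and Erbb3 (0.33) and the utrophin gene Utrn (0.02) had adjusted p-values from 0.552 to 0.963 (edgeR). Nrg1 had too few counts to be tested. The median log2 fold change of the 27 genes was 0.05.

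Genes known to respond to loss of the nerve moved in both directions. Of 15 that are known to rise, 2 were higher and 1 lower in CAAHR (edgeR), and the median log2 fold change was 0.19. Over all tested genes, 3.04% were called higher and 4.57% lower. Ankrd1, a stretch- and stress-responsive ankyrin repeat gene, was at 6.75, 7.69 and 10.3 CPM in GFP replicates 42, 43 and 46 and at 22.1, 18.5 and 24.9 CPM in CAAHR replicates 31, 34 and 36, a log2 fold change of 1.40 ± 0.17 (edgeR, adjusted p 0.00212). Tnfrsf12a, the receptor for the cytokine TWEAK, was at 16.4, 16.6 and 20.0 CPM in GFP and at 34.1, 26.7 and 38.9 CPM in CAAHR in the same order, with a log2 fold change of 0.91 ± 0.15 (edgeR, adjusted p 0.00685). Both genes had non-overlapping groups. With the slow-fibre covariate neither was called, Ankrd1 at 0.87 (adjusted p 0.0588 in edgeR) and Tnfrsf12a at 0.39 (0.276).

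Gadd45a, a stress gene induced in denervated fibres, went the other way. It was at 24.2, 21.1 and 16.3 CPM in GFP replicates 42, 43 and 46 and at 11.4, 8.69 and 8.17 CPM in CAAHR replicates 31, 34 and 36. The log2 fold change was -1.12 ± 0.17 (edgeR, adjusted p 0.00654), and -1.04 with the slow-fibre covariate, where it was not called (adjusted p 0.169 in edgeR). An antisense gene, E230016M11Rik, shares 337 bases of its exons, and whether the counting used strand was not stated.

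Myog, which encodes myogenin, was at 2.57, 2.07 and 1.49 CPM in GFP replicates 42, 43 and 46 and at 2.75, 4.74 and 4.92 CPM in CAAHR replicates 31, 34 and 36. No library overlapped, and the log2 fold change was 1.02 ± 0.27, just short of the threshold (edgeR, adjusted p 0.0523). It was called by DESeq2, by edgeR without a filter on low counts, by edgeR with scaling by library size alone and in edgeR without CAAHR replicate 31.

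Ubiquitin ligase genes of atrophy did not pass: Fbxo32 had a log2 fold change of -0.11 and Trim63 one of 0.19. Neither did Hdac4 (-0.22, with 3536 exon bases antisense to Gm26720), Runx1 (0.15), Ncam1 (0.30) nor the embryonic myosin gene Myh3 (0.67), with adjusted p-values of these 6 from 0.234 to 0.835 (edgeR). Myh3 was called in edgeR without CAAHR replicate 34. Ncam1, a cell adhesion gene that spreads along denervated fibres, was at 7.70 to 12.9 CPM in GFP and at 11.8 to 14.9 CPM in CAAHR.

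Of the 2 listed genes that are known to fall with denervation, neither passed as reported and their fitted signs were opposite. Dach2, a repressor of Myog, was at 0.559, 1.59 and 1.74 CPM in GFP replicates 42, 43 and 46 and at 7.85, 2.27 and 4.64 CPM in CAAHR replicates 31, 34 and 36, a log2 fold change of 1.92 ± 0.57 (edgeR, adjusted p 0.0981). Hdac9 was at 3.12 to 6.40 CPM in GFP and at 1.39 to 3.004 CPM in CAAHR, a log2 fold change of -1.37 ± 0.36 (0.0600). DESeq2 and edgeR without robust estimation called both, Dach2 higher and Hdac9 lower. Dach2 was also called by limma-voom and in edgeR without CAAHR replicate 34, and Hdac9 in edgeR without a filter on low counts, without CAAHR replicate 31 or without GFP replicate 43.

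**Figure D4:**
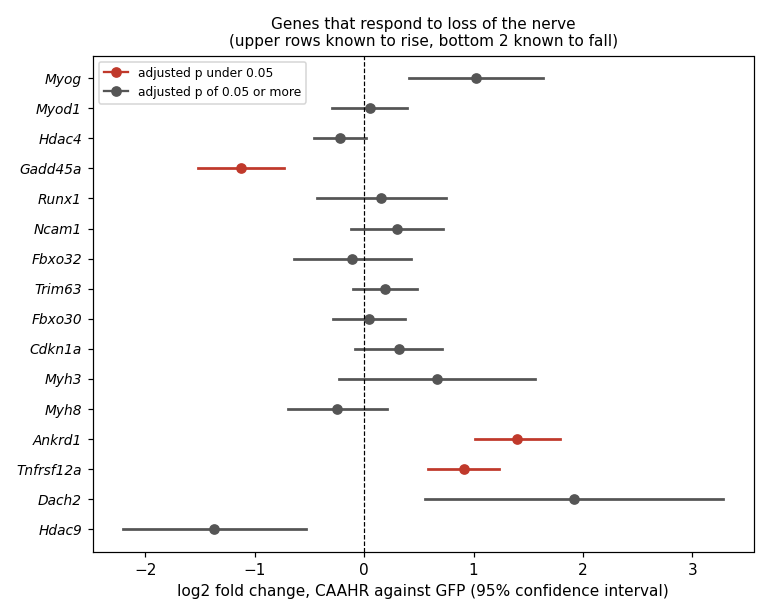
Log2 fold change of CAAHR against GFP (horizontal axis) with 95% confidence intervals from edgeR, for listed genes known to rise after denervation (upper rows) and 2 known to fall (Dach2 and Hdac9). Ankrd1 and Tnfrsf12a are called higher and Gadd45a lower, drawn in red, and most other intervals include 0.

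Nicotinic subunits that are not part of the muscle receptor were looked at as well. Of 11 such genes, 4 were tested and 2 were called, both higher in CAAHR (edgeR). Over all tested genes, 3.04% were called higher. Chrna9, best known from hair cells of the inner ear, had 3, 7 and 4 counts in GFP replicates 42, 43 and 46 and 124, 291 and 329 counts in CAAHR replicates 31, 34 and 36. In CPM this was 0.0621, 0.168 and 0.0755 against 2.45, 5.09 and 5.39. The log2 fold change was 5.42 ± 0.45 (edgeR, adjusted p 4.15e-04), a size that rests on few GFP counts. Chrna9 lies at chromosome 5, 65934921 to 65977326, and shares no exon base with another annotated gene. The call held whichever of the 6 libraries was left out.

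Chrna2, a subunit of neuronal receptors, was at 0.207, 0.264 and 0.566 CPM in GFP replicates 42, 43 and 46 and at 3.06, 0.805 and 2.41 CPM in CAAHR replicates 31, 34 and 36. The log2 fold change was 2.56 ± 0.56 (edgeR, adjusted p 0.0326). It lost its call in 5 of the 6 fits that left out a library, with adjusted p-values from 0.0555 to 0.125 in those edgeR fits. With the slow-fibre covariate it went to 0.35 (adjusted p 0.745 in edgeR). Chrna10 (log2 fold change -0.30) and Chrnb2 (-0.39) did not pass, and 7 genes, Chrna6 and Chrnb3 with no count in any library among them, had too few counts.

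Several features of the libraries moved with the groups. As a check of the vector, Ahr was at 9.96 to 22.8 CPM in CAAHR and at 1.87 to 2.55 CPM in GFP. Library totals were 43432994 to 58825752 counts. The 9 slow-fibre markers summed to 2912, 683 and 2663 CPM in CAAHR replicates 31, 34 and 36 and to 239 to 520 CPM in GFP. All 9 had a higher fitted level in CAAHR, but none was called (edgeR). For 6 of them each CAAHR library lay above each GFP library, where 15% of all tested genes did. Over all tested genes, 7.6% were called. Of the 11 fast-fibre markers 9 had a lower fitted level in CAAHR, with Myl1, Tnnt3 and Tnni2 called, and they summed to 148507 to 204738 CPM against 209380 to 216414 CPM. The 5 muscle identity genes (Acta1, Ckm, Des, Ttn and Mb) were all present and summed to 52475 to 56780 CPM in CAAHR and to 77898 to 83342 CPM in GFP. Acta1 and Ckm were called lower. Des (log2 fold change -0.48), Ttn (0.03) and Mb (1.03) were not called (edgeR, adjusted p 0.0554, 0.905 and 0.393). For Des each CAAHR library lay below each GFP library. All 12 Schwann cell markers had a lower fitted level in CAAHR, with Egr2 and Ngfr called, and summed to 53.4 to 86.5 CPM against 87.4 to 146 CPM. In such bulk tissue, fewer cells of a type and less RNA per cell cannot be told apart. Axon markers, at 5.16 to 12.02 CPM in CAAHR and 5.10 to 9.63 CPM in GFP, overlapped between the groups. Stmn2 was the largest part, and Nefl ranged from 3 to 59 counts within CAAHR. Of the 5 axon markers 4 were tested, and none was called (edgeR). Innervation itself was not measured. The 6 immune markers summed to 12.2 to 21.9 CPM in CAAHR and to 127 to 411 CPM in GFP. Most of the GFP sum was Ighm, at 120.6, 391.8 and 252.4 CPM in replicates 42, 43 and 46. All 6 had a lower fitted level in CAAHR, of which Ighm and Ptprc were called (edgeR), and Cd3e overlapped between the groups. The paper reports that the AAV9-GFP vector itself led to a local immune response in muscle. Satellite cell (25.6 to 34.4 and 26.8 to 28.2 CPM), fibroblast (208 to 427 and 337 to 395 CPM) and endothelial markers (102 to 140.3 and 100.7 to 126 CPM) overlapped. No listed marker was at 0 in all 6 libraries. The part of these cell populations in the junction results was not tested, except for slow fibres.

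When the mean level of the slow-fibre markers was added to the fit as a covariate, Chrnb1 was the only one of the 9 members called, with a log2 fold change of 1.25 (edgeR, adjusted p 0.00784). Within CAAHR, Chrnb1 was highest in replicate 34, the library with the least slow-fibre RNA. Replicate 34 also had the most Ahr, at 22.8 CPM against 9.96 and 17.3 CPM in replicates 31 and 36. Whether Chrnb1 followed slow-fibre RNA or the level of Ahr was not tested. Chrnd was lowest in replicate 34. Chrna9 was at 5.82 (adjusted p 0.00201 in edgeR). The order of Chrna2 across CAAHR libraries was that of the slow-fibre markers. The covariate was itself higher in the CAAHR libraries, so slow-fibre content and the vector cannot be told apart fully by this fit.

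**Figure D5:**
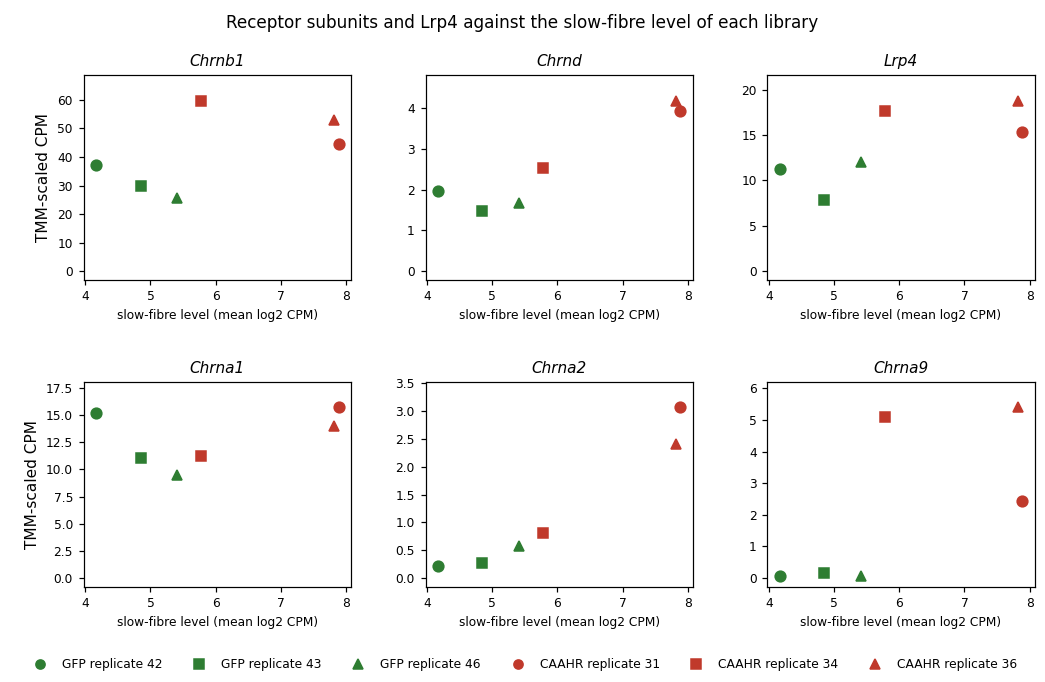
TMM-scaled CPM (vertical axes) of Chrnb1, Chrnd, Lrp4, Chrna1, Chrna2 and Chrna9 against the mean log2 CPM of 9 slow-fibre markers (horizontal axes) in each of the 6 libraries. CAAHR replicate 34 lies nearest to the GFP libraries on the horizontal axis, and there Chrnb1 and Chrna9 stay high while Chrnd and Chrna2 lie closer to GFP.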

How the data were processed

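Poly(A)-selected RNA was sequenced as paired ends. The authors trimmed reads with Trimmomatic 0.36, aligned them to GRCm38 with STAR 2.5.2b and deposited counts of uniquely mapped exonic reads per gene (featureCounts), not normalised and not pooled. Trimming and aligner versions follow the submitters' processing notes. Strand was used only if the libraries were stranded, which was not stated.

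Columns were matched to samples by title. The test was that of edgeR 4.0.16 in R 4.3.3: filterByExpr (15847 genes left), TMM scaling, robust quasi-likelihood F test, Benjamini-Hochberg adjustment over all tested genes, threshold 0.05. SEs were derived from the F statistic. Positions and exon lengths came from GENCODE release 21 for mouse (GRCm38), promoters from RefSeq (GRCm38.p6). The fit was tested on simulated counts. Totals were 43432994 to 58825752 counts per library.

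Named were the 10 members, the likeness genes, and from the other lists all called genes, those at an unadjusted p under 0.05 and a fixed set of reference genes, of which a gene counted in the denervation list is not reported here by name. Members, lists and the slow-fibre covariate were chosen with earlier results of these data known. Alternatives were 3 scalings, 2 filters, DESeq2 1.42.0 (the authors' test, without their cut on fold change), limma 3.58.1 voom, non-robust edgeR, the covariate and leaving out each library. Those of the other nicotinic subunits were added after seeing the data.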

Additional observations from a re-analysis of the deposited data

How the results depend on the processing

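No paired analysis was possible because no replicate number occurs in both groups. Chrnb1, Chrnd and Lrp4 kept their calls under the 3 other scalings, both filters, DESeq2, limma-voom and edgeR without robust estimation. Their log2 fold changes in DESeq2 were 0.76, 1.04 and 0.72. The authors also required an absolute log2 fold change above 1, which only Chrnd of these met. The count of called members was 3 as reported and 1 with the slow-fibre covariate. It ranged from 0 to 3 across the 6 fits that left out a library: 0 without CAAHR replicate 36 (3 at an unadjusted p under 0.05) and without GFP replicate 43 (4), 1 without GFP replicate 46. These fits have fewer samples. Called genes over the whole table, 1205 as reported (481 higher, 724 lower), were 2470 without a filter, 1919 with DESeq2, 443 with the covariate and 530 to 1727 with a library left out. Scaling by library size alone gave 879 higher and 600 lower, and upper quartile scaling 358 higher and 990 lower. These 2 scalings shifted the median log2 fold change of all genes by 0.08 and -0.07, respectively. Leaving out the filter changed p-values at nearly the same fold change. Chrnb1 had a log2 fold change of 0.78 with an adjusted p of 1.6e-09 (edgeR), against 0.77 and 0.0193 as reported. Colq went from an adjusted p of 0.247 to 0.432 (edgeR). Calls gained only without the filter therefore do not reflect larger changes.

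In the other junction and denervation lists together, 4 genes were called as reported, 8 with library size only, 10 without a filter, 10 with DESeq2 and 0 with the covariate in edgeR (10 at an unadjusted p under 0.05), and 4 to 7 with a library left out. The 2 called other nicotinic subunits became 1 with at least 10 counts in every library, where Chrna9 was not tested, 1 with the covariate and 1 to 2 with a library left out.

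Musk, at a log2 fold change of 0.01, reversed to -0.000642 with DESeq2 size factors, -0.0622 with upper quartile scaling, -0.00131 with DESeq2, -0.0244 with limma-voom and -0.254 with the covariate, and ranged from -0.180 to 0.238 with a library left out. Rapsn reversed to -0.0435 with upper quartile scaling and ranged from -0.0351 to 0.115. Except where stated, the cause was not tested. Of the members' 135 checks, 12 turned the sign, 13 lost a call, 2 gained one and 108 did neither. Chrng, with 0 to 24 counts per library, had too few counts to be tested.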
